A study of Saccharomyces cerevisiae with 6 samples.

Results

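The transcriptome of log-phase budding yeast was described from 3 total RNA libraries, out of 6 libraries in the study. The libraries were those whose titles call them total RNA, and no value of the other 3 libraries was used. All 3 came from Saccharomyces cerevisiae BY4741, a haploid laboratory strain of mating type a that carries complete deletions of LEU2, URA3 and MET17 (also called MET15) and a partial deletion of HIS3. The yeast had received no treatment and was in log phase in a medium that the labels do not name, its RNA was extracted with phenol and chloroform and precipitated with ethanol, and ribosomal RNA was removed with Ribo-Zero. The labels state for these libraries too that the extracted RNA was placed in 150 mM NaCl with 10% polyethylene glycol and 1 mM MgCl2, and it is not settled whether this was done for total RNA. The labels do not say whether the 3 libraries came from separate cultures, so the spread between them may be technical.

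In log phase with glucose, budding yeast ferments sugar to ethanol even in air, and much of its messenger RNA encodes the enzymes of glycolysis and the machinery of protein synthesis. Genes for other sugars, for sporulation and for the opposite mating type are held low in such haploid cells by glucose repression and by regulators of cell type. Ribosomal RNA depletion, unlike selection for poly(A), keeps mitochondrial transcripts, which lack long poly(A) tails.

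The table held 6603 open reading frames (ORFs), and total RNA libraries 1, 2 and 3 had 10281076, 8948906 and 9744148 reads in them. A value is given below as a whole number of reads in a library, as a share of all ORF reads, or as a level in TPM, the usual scale of transcript abundance per length. A TPM here is the deposited normalised value divided by the coding length in RefSeq, scaled to a sum of 1000000 in each library over the 5915 ORFs with a coding length. Levels of genes are compared on this scale, while ranks by reads also reflect length. Untranslated ends and fragment length did not enter the scale, so levels of very short ORFs are less certain. Errors are SDs over the 3 libraries (n = 3). Libraries 1 and 2 were closer to each other than either was to library 3. The chi-square per degree of freedom between their counts was 1.56 for libraries 1 and 2, against 12.3 for libraries 1 and 3 and 11.7 for libraries 2 and 3, where counting error alone gives a value near 1. Such a value cannot tell whether libraries 1 and 2 share an RNA preparation. The genes behind the difference are given at the end, and values with library 3 left out stand with the alternatives.

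Reads were concentrated in few genes. The 10 most abundant ORFs took 14.6% ± 0.380 of reads, and these were the same 10 ORFs in every library. The 100 most abundant took 38.3% ± 0.847, with 92 ORFs common to the top 100 of all 3 libraries. In libraries 1, 2 and 3, 50% of reads lay in 216, 215 and 198 ORFs, and 90% lay in 2216, 2215 and 2135 ORFs. The median level was 34.7 TPM, the 10th percentile was 4.40 TPM and the 99th percentile was 2923 TPM. The highest level was 612 times the median.

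**Figure D1:**
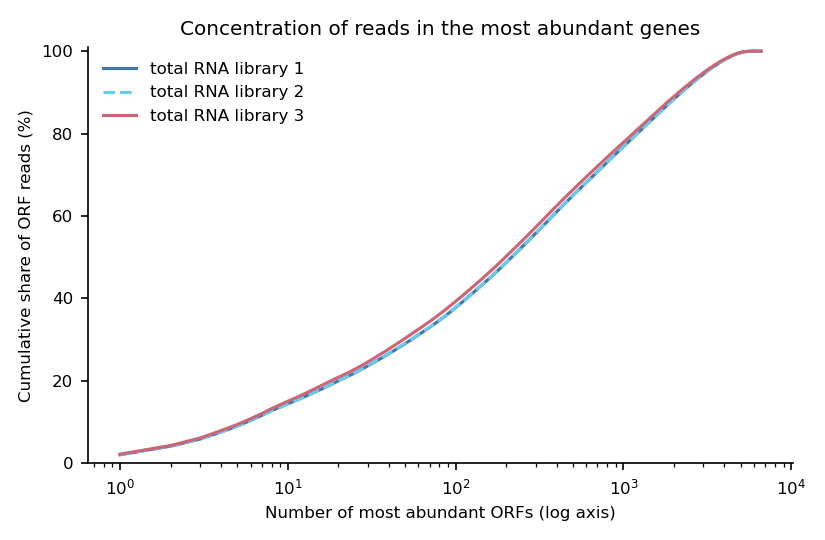
Cumulative share of ORF reads (%) against the number of most abundant ORFs (log axis), 1 line for each total RNA library. The lines of libraries 1 and 2 lie on each other, and that of library 3 runs slightly above them, reaching 50% at 198 ORFs.

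TDH3, a glyceraldehyde-3-phosphate dehydrogenase of glycolysis, was the most abundant ORF by mean reads and per length, although PDC1 had more reads than TDH3 in library 2. TDH3 had 215499, 186481 and 218507 reads in libraries 1, 2 and 3, which was 2.14% ± 0.0882 of reads and 21237 ± 650 TPM. PDC1, the main pyruvate decarboxylase, which opens the fermentation branch, had 213179, 187926 and 203540 reads, or 2.09% ± 0.0133. TEF2 and TEF1, which both encode translation elongation factor 1 alpha, followed with 1.75% ± 0.0571 and 1.75% ± 0.0517. These last genes are near-identical in sequence, as are TDH3 and TDH2, so how reads were split within such a pair depends on the authors' counting. The rest of the first 10 were the pyruvate kinase gene CDC19, the enolase gene ENO2, the fungal elongation factor gene YEF3, the aldolase gene FBA1, the plasma membrane proton pump gene PMA1 and the alcohol dehydrogenase gene ADH1, between 0.798% and 1.41% of reads each.

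Places 11 to 20 by reads went to EFT2 and EFT1 (elongation factor 2), SSA2, SSB1 and HSC82 (cytosolic chaperones of the Hsp70 and Hsp90 families), PGK1 and GPM1 (glycolysis), RPL3 (a ribosomal protein), FAS1 (fatty acid synthase) and CCW12 (a cell wall mannoprotein). Their shares lay between 0.444% for HSC82 and 0.693% for EFT2. Length changes the order. Per coding length, the short CCW12 rose to the fifth place with 12090, 11385 and 12247 TPM in libraries 1, 2 and 3. RPL41A, which encodes the smallest ribosomal protein in only 78 nt, was in place 269 by reads and in the ninth place per length, with 8389 ± 640 TPM. FAS1, with 6156 nt of coding sequence, was among the first 20 by reads at a level of 807 ± 19.2 TPM.

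The strain genes and the mating genes were those of the labelled strain. LEU2 and MET17 had 0 reads in all 3 libraries, and URA3 had 0, 1 and 0 reads. A count of 0 allows up to 3 reads, which is 0.292, 0.335 and 0.308 of 1000000 reads in libraries 1, 2 and 3. HIS3, of which BY4741 keeps a part, had 316, 256 and 344 reads, or 47.1 ± 4.62 TPM. The 6 genes of the a-specific list, which does not include STE6, were all detected and their median was 239 TPM.

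MFA2 and MFA1 encode the precursors of a-factor, the pheromone that only a cells secrete. MFA2 had 3381, 2671 and 3161 reads in libraries 1, 2 and 3, or 2687 ± 129 TPM. MFA1 had 705, 642 and 679 reads, or 625 ± 17.3 TPM. STE2, the receptor for the opposite pheromone, had 4479, 3924 and 4940 reads, or 352 ± 27.1 TPM. The agglutinin subunit gene AGA2 (126 ± 33.6 TPM), the gene of the alpha-factor protease BAR1 (107 ± 8.76 TPM) and the a-factor exporter gene STE6 (97.3 ± 1.24 TPM) were lower, and ASG7 was lowest with 7.46 ± 0.885 TPM.

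The coding sequences of the pair of a-factor genes, from RefSeq build R64, are shown because they are the highest and second highest a-specific transcripts, differ in level and encode precursors of nearly the same pheromone. MFA1 lies at chrIV:1385176-1385286 and MFA2 at chrXIV:352414-352530, both on the plus strand.
MFA1: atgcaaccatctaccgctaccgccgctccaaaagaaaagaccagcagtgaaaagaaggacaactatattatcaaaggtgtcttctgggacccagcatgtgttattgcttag
MFA2: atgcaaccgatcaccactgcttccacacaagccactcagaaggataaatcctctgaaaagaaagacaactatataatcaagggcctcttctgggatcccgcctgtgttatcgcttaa

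Of the alpha-specific genes, none lay above the median of all genes, and their own median was 2.02 TPM. MF(ALPHA)1, the main alpha-factor gene, had 8, 5 and 3 reads in libraries 1, 2 and 3, and MF(ALPHA)2 had 3, 3 and 5 reads. STE3, the a-factor receptor gene, had 45, 36 and 41 reads, or 2.95 ± 0.125 TPM. SAG1, the alpha-agglutinin gene, was highest with 251, 197 and 225 reads, or 11.8 ± 0.622 TPM. MATALPHA1, the activator of alpha-specific genes, had 0 reads in every library and its silent copy HMLALPHA1 had 0, 1 and 0. MATALPHA2 had 63, 59 and 52 reads and HMLALPHA2 had 78, 66 and 72. The coding sequences of MATALPHA2 and HMLALPHA2 are identical and that of HMRA2 is near-identical to both, so the source of these reads cannot be told apart. The 26 haploid and shared mating genes had a median of 29.8 TPM, and 11 of them lay above the median of all genes. The highest were FUS3 (the pheromone response kinase) at 91.3 ± 5.98 TPM, STE4 (the G protein beta subunit) at 87.4 ± 9.17 TPM and the regulator SST2 at 75.4 ± 2.41 TPM, with HO (the mating-type endonuclease) next at 74.7 ± 6.14 TPM. At the low end of that list lay FIG1 (1.44 ± 0.288 TPM) and PRM2 (0.749 ± 0.0539 TPM), both known as pheromone-induced.

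Markers of growth phase were read from the same lists. The G1 cyclin gene CLN2 was at 118 ± 3.08 TPM and the mitotic cyclin gene CLB2 at 47.6 ± 4.22 TPM, and all 37 cell cycle regulators had a level of at least 13.2 TPM. Of 45 stationary phase and stress genes, 18 lay above the median of all genes, 3 were under 1 TPM in every library, beside 2.77% of all genes, and the median was 27.4 TPM. The stationary phase genes SPG4 (10, 16 and 4 reads) and SPG1 (6, 10 and 1 reads) and the desiccation gene SIP18 (18, 12 and 13 reads) were all low. HOR7 (924 ± 88.9 TPM), PNC1 (240 ± 36.0 TPM) and the membrane stress protein gene HSP12 (193 ± 85.05 TPM) were the highest of that list.

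Glycolysis and fermentation genes, 24 in number, took 11.8% ± 0.427 of reads and 9.67% ± 0.311 of the summed TPM, and 20 of them lay above the median of all genes. Along the pathway the levels were lowest in the first steps and highest from aldolase on. Hexokinase HXK2 had 924.6 ± 20.9 TPM, phosphoglucose isomerase PGI1 had 1489 ± 11.01 TPM, and the phosphofructokinase subunits PFK1 and PFK2 had 586 ± 31.8 and 674 ± 22.1 TPM. FBA1 had 10520.5 ± 270 TPM, triose phosphate isomerase TPI1 3584 ± 342 TPM, PGK1 4928 ± 479.6 TPM, GPM1 7813 ± 434 TPM, ENO2 10590.3 ± 389.9 TPM and CDC19 9274 ± 245 TPM. The branch to ethanol had PDC1 at 12229.8 ± 149 TPM and ADH1 at 7551 ± 493 TPM. FBA1 and ENO2 differed by less than their spread between libraries.

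At each step where isozymes were compared, 1 isozyme held most of the transcript, between 80.7% for HXK2 and 99.8% for PDC1. PDC1 made up 99.8% ± 0.0156 of the pyruvate decarboxylase TPM, and PDC6 had only 27, 22 and 18 reads in libraries 1, 2 and 3. CDC19 made up 99.7% ± 0.00148 of pyruvate kinase over PYK2. TDH3 made up 86.1% ± 0.254, TDH2 12.6% ± 0.199 and TDH1, known as the isoform of non-growing cells, 1.33% ± 0.0582. ENO2 made up 89.7% ± 1.61 of enolase over ENO1. ADH1 made up 89.3% ± 0.506 of 5 alcohol dehydrogenases, while ADH2, the glucose-repressed ethanol-oxidising enzyme, was at 5.99% ± 0.354. The coding sequence of ADH2 is not near-identical to that of ADH1 by the 95% limit, but both share long stretches, and whether reads of ADH1 were counted for it was not tested. HXK2 made up 80.7% ± 0.545 of the glucose kinases, with GLK1 at 14.2% ± 0.692 and HXK1 at 5.11% ± 0.326.

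**Figure D2:**
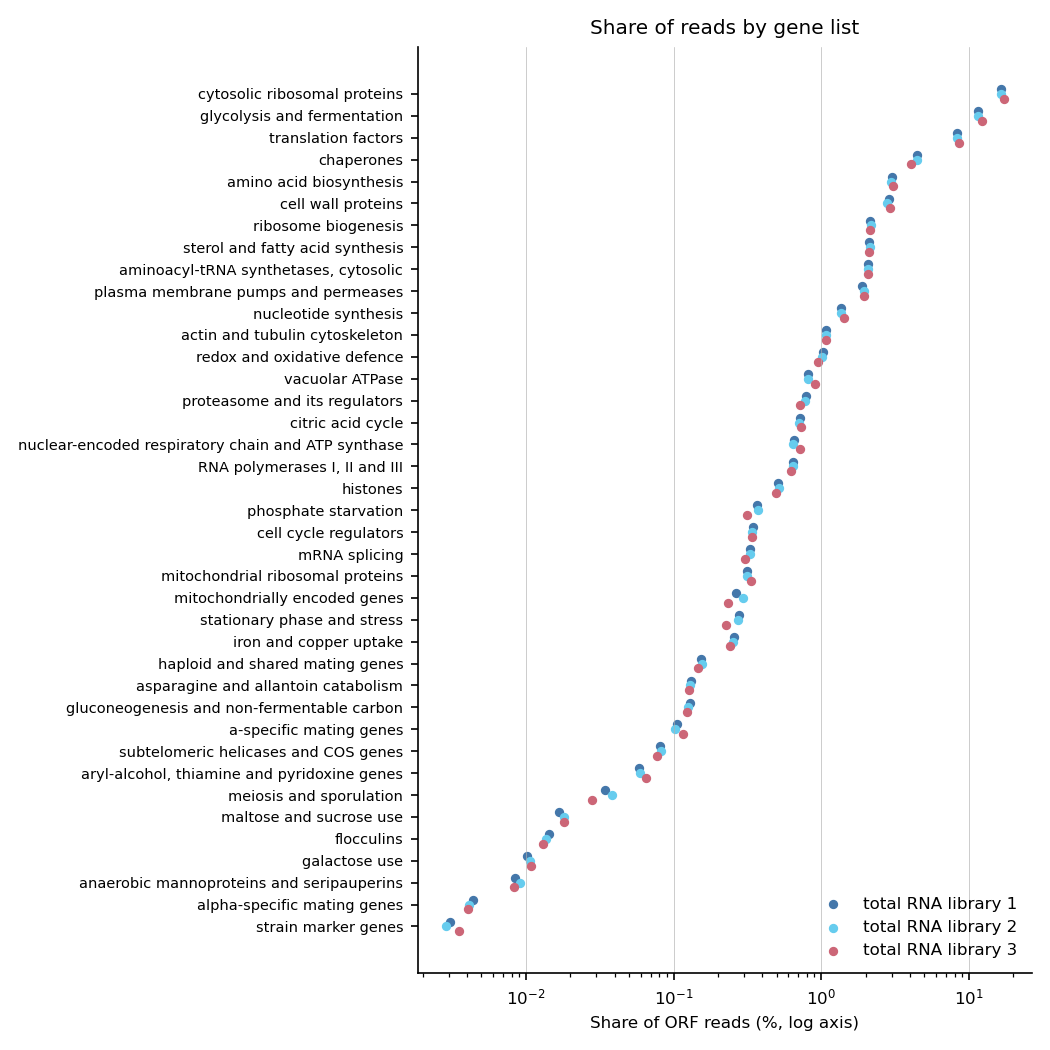
Share of ORF reads (%, log axis) of 39 gene lists in each total RNA library, ordered by the mean. Cytosolic ribosomal proteins lead with a mean of 16.7%, followed by glycolysis and fermentation with 11.8% and translation factors with 8.40%, and the 3 libraries lie close together in most lists.

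Protein synthesis took the largest part. The 137 genes of cytosolic ribosomal proteins had 16.7% ± 0.497 of reads, and since they are short, 34.7% ± 0.717 of the summed TPM. All 137 lay above the median of all genes, where 50% of genes lie by construction, and their median was 2249 TPM. The highest were RPL41A, then RPS31, a fusion of ubiquitin with a small-subunit protein (7568 ± 481 TPM), RPL32 (7368 ± 112 TPM) and RPL19B (6191 ± 11.7 TPM). The lowest were RPL22B (329 ± 8.47 TPM) and RPL15B (116 ± 4.54 TPM). The 41 translation factors took 8.40% ± 0.113 of reads and 5.59% of the summed TPM, led by TEF2, TEF1, YEF3 (3985 ± 44.2 TPM) and EFT2 (2717 ± 54.7 TPM). The share of translation factors was 3.83% of reads without near-identical genes, among which are TEF1, TEF2, EFT1 and EFT2. HEF3, the second elongation factor 3, had 4.40 ± 0.604 TPM, so that YEF3 made up 99.9% ± 0.0145 of the pair. ANB1, the anaerobic form of eIF5A, had 19.1 ± 0.556 TPM, against 2633 TPM for the aerobic form HYP2.

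Most ribosomal proteins of yeast are encoded by a pair of genes left from a genome duplication. Of 59 such pairs, 38 had levels within 2-fold of each other, and the median ratio of the higher to the lower was 1.62. The most unequal pair was RPL15A and RPL15B. RPL15A had 28850, 25129 and 30515 reads in libraries 1, 2 and 3, and RPL15B had 763, 613 and 711, a ratio of 40.6 ± 2.58 per length. RPS9B was 8.38 times as high as RPS9A, RPL22A was 8.09 times as high as RPL22B and RPS14A was 7.01 times as high as RPS14B. None of these 4 pairs is near-identical, whereas 20 of the 59 pairs are. The extreme case of near-identity is RPL41A and RPL41B, shown here because their 78 nt differ at 1 base, in capitals. Both lie on the minus strand of chromosome IV, at chrIV:130407-130484 and chrIV:221724-221801 of build R64.
RPL41A: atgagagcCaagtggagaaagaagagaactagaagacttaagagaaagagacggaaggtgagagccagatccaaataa
RPL41B: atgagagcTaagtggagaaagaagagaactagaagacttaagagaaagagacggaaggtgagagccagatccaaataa

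RPL41A had 6284, 5794 and 7042 reads and RPL41B had 2998, 2547 and 3540. The level of RPL41A was the higher in each library. A read from coding sequence can be placed in 1 of these genes only through that base or through flanking sequence, and how reads with several matches were handled is not stated. Where the coding sequences of copies are identical, levels were close to equal in some sets and not in others. The metallothionein copies CUP1-1 and CUP1-2 had a ratio of 0.988, 1.05 and 1.02 in libraries 1, 2 and 3, and the 4 copies of ASP3, a secreted asparaginase, had means between 538.7 and 553.5 normalised reads. For COS2 and COS3 the ratio was 2.07, 1.89 and 1.75.

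The factories behind the ribosome were lower per gene. The 121 ribosome biogenesis genes took 2.15% ± 0.0204 of reads and 1.28% of the summed TPM with a median of 71.4 TPM, and 112 lay above the median of all genes. NOP10, a small protein of the box H/ACA particles, was highest at 698 ± 6.43 TPM. The 22 cytosolic aminoacyl-tRNA synthetase genes, whose products charge transfer RNA, all lay above the median of all genes, from 175 TPM for CRS1 (cysteine) to 1107 TPM for ILS1 (isoleucine). Genes of RNA polymerases I, II and III had a median of 139 TPM and those of the proteasome 175 TPM, and none of the 37 proteasome genes was below 58.7 TPM. Chaperone genes took 4.34% ± 0.240 of reads, 2.79% of the summed TPM, and 2.78% of reads without near-identical genes. They had SSA2 (3548 ± 344 TPM), SSB1 (2712 ± 32.6 TPM), SSB2 (2109 ± 12.3 TPM) and HSC82 (2079 ± 188 TPM) on top and the calnexin gene CNE1 lowest (24.7 ± 1.42 TPM). The core histone genes lay between 843 TPM for HTA2 and 1985 TPM for HHF2, while the centromeric histone CSE4 had 36.9 ± 2.26 TPM.

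**Figure D3:**
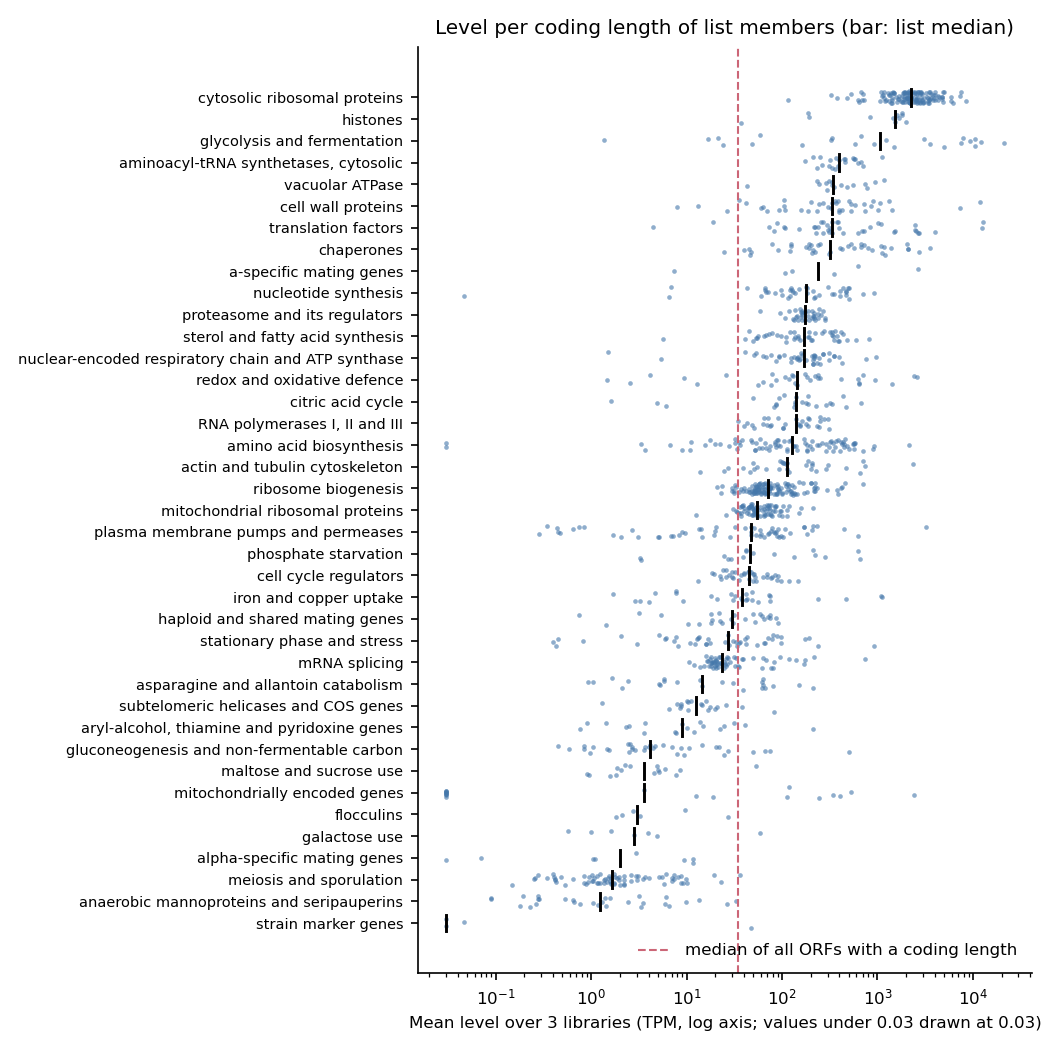
Mean level over 3 libraries (TPM, log axis, values under 0.03 drawn at 0.03) of each member of 39 gene lists, with a bar at the list median and a dashed line at the median of all ORFs with a coding length, 34.7 TPM. Ribosomal proteins and tRNA synthetases lie wholly above the line, and the lists for meiosis, galactose use and seripauperins lie almost wholly below it.

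At the cell surface, PMA1, the proton pump that sets the membrane potential, had 90423, 80921 and 90032 reads in libraries 1, 2 and 3, or 3245 ± 57.8 TPM. Its paralog PMA2 had 5.10 TPM, 0.157% ± 0.00699 of the pair. Of the hexose transporters, the low-affinity HXT3 was highest with 375, 386 and 578 TPM in libraries 1, 2 and 3. HXT2 had 197, 201 and 109.5 TPM and HXT1 71.2, 70.9 and 89.8 TPM. HXT2 was thus lower in library 3 and HXT3 and HXT1 were higher there. HXT8 to HXT17 were all under 2 TPM, and their near-identical members HXT15 (7, 8 and 2 reads) and HXT16 (7, 6 and 1 reads) were lowest of all 60 pumps and permeases. Cell wall genes took 2.86% ± 0.0645 of reads, led by CCW12, CWP2 (7349 ± 718 TPM) and the glucan remodelling enzyme GAS1 (1406 ± 65.6 TPM). FKS1 made up 95.3% ± 0.538 of the transcript of the glucan synthase subunits over GSC2.

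Among the biosynthetic lists, 86 amino acid genes took 3.01% ± 0.0351 of reads and 1.99% of the summed TPM, and 70 lay above the median of all genes. ILV5 of branched-chain synthesis was highest at 2150 ± 16.9 TPM, followed by SAH1 (926.5 ± 10.4 TPM), ILV3 (898 ± 7.66 TPM) and SAM1 (706 ± 18.3 TPM). The 44 sterol and fatty acid genes took 2.11% ± 0.0162 of reads and 0.963% of the summed TPM, with FAS1 and FAS2 on top, and all but INO1 lay above the median of all genes. INO1, which makes inositol and is repressed when inositol is supplied, had 106, 86 and 74 reads, or 5.68 ± 0.923 TPM. The peroxiredoxin gene AHP1 led the redox list with 16192, 14067 and 9951 reads. It was lower in library 3, at 1884 TPM, than in libraries 1 and 2, at 2955 TPM in both. The pentose phosphate enzymes TKL1 and GND1 made up 99.8% ± 0.0192 and 99.3% ± 0.0770 of their pairs.

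The nuclear-encoded genes of the respiratory chain and ATP synthase took 0.672% ± 0.0404 of reads with a median of 170 TPM, and 42 of 44 lay above the median of all genes. ATP1 (969.8 ± 76.1 TPM) and ATP2 (764 ± 63.1 TPM) of the ATP synthase were highest. The hypoxic or minor isoforms were the lower of their pairs, with CYC7 at 2.61% ± 0.968 of cytochrome c and COX5B at 22.4% ± 2.59. In level, CYC7 was low with 5.44 TPM, whereas COX5B had 67.3 TPM, above the median of all genes. Citric acid cycle genes had a median of 139 TPM, from PDA1 (673 ± 36.3 TPM) to CIT3 (1.62 ± 0.409 TPM). Mitochondrial ribosomal protein genes had a median of 55.0 TPM, far under the cytosolic ones.

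The mitochondrial genome gave 0.264% ± 0.02997 of reads over 28 ORFs. OLI1, subunit 9 of ATP synthase, had 5763, 4989 and 5667 reads in libraries 1, 2 and 3, or 2431 ± 30.8 TPM. COX1 of cytochrome oxidase had 8956, 9228 and 6356 reads, or 527 ± 122 TPM, and was lowest in library 3. COX2 was at 402 ± 52.3 TPM, COX3 at 343 ± 25.9 TPM, ATP6 at 242 ± 72.6 TPM, COB at 114 ± 10.2 TPM and the ribosomal protein gene VAR1 at 12.4 ± 1.81 TPM. ATP8 had 2, 7 and 6 reads. The intron ORFs of COX1 and COB (AI1, AI2, AI3, AI4, AI5_ALPHA, AI5_BETA, BI2, BI3 and BI4), which encode maturases and endonucleases, had 0 reads in every library. RefSeq places each of these 9 over the span of its host gene, and whether reads in the overlap were left out by the counting was not tested. SCEI, the endonuclease ORF within the intron of the large ribosomal RNA, had 826, 936 and 696 reads.

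Genes known for sporulation, for other sugars and for other carbon sources were low, but seldom at 0. The 74 meiosis and sporulation genes took 0.0334% ± 0.00512 of reads and had a median of 1.67 TPM. Of these, 14 were under 1 TPM in every library, beside 2.77% of all genes, 1 lay above the median of all genes and none had 0 reads in all libraries. That 1 gene was SPR6 (36.5 ± 3.11 TPM), and the next were REC107 (22.7 ± 3.33 TPM) and SPO73 (19.2 ± 2.82 TPM). MEK1, a meiotic kinase, had 6, 3 and 2 reads and CSM4 had 1, 1 and 0. The galactose genes GAL1, GAL7, GAL10 and GAL2, which need galactose to be induced, had 4.94, 1.63, 0.997 and 0.578 TPM, while the repressor GAL80 was at 59.0 ± 2.27 TPM. Maltose and sucrose genes had a median of 3.59 TPM, with the invertase gene SUC2 highest at 52.9 ± 5.29 TPM. Genes for gluconeogenesis and other carbon sources had a median of 4.12 TPM, and 4 of 35 lay above the median of all genes, namely ADH2 (506 ± 19.5 TPM), MDH2, ACH1 and DLD1. Flocculin genes lay between 1.81 TPM for FLO11 and 27.2 TPM for FLO8, the transcription factor among them.

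Phosphate and metal genes were not silent. The high-affinity phosphate transporter PHO84 had 12340, 10746 and 10532 reads in libraries 1, 2 and 3, or 653 ± 45.3 TPM. It overlaps an annotated antisense RNA in RefSeq, and since the sources used here do not state whether strand was counted, reads of both cannot be told apart. The multicopper oxidase FET3 (469 ± 6.66 TPM) and the permease FTR1 (239 ± 10.2 TPM), which take up iron together, were the highest of the uptake genes after the CUP1 copies. The sodium-linked phosphate transporter PHO89 had 78, 68 and 15 reads, and GIT1 had 58, 45 and 49.

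Genes near chromosome ends were low. Of the genes within 10 kb of an end, 122 in number, the median level was 4.18 TPM and 21.3% were under 1 TPM in all libraries, whereas beyond 50 kb the median was 37.0 TPM and 1.77% were under 1 TPM. The medians at 10 to 20, 20 to 30 and 30 to 50 kb were 7.25, 16.4 and 35.2 TPM. Near-identical copies are frequent at the ends (78 of the 122), and without them the median of the first 10 kb was 4.29 TPM over 44 genes. The seripauperin and related mannoprotein genes, many of which lie there, had a median of 1.25 TPM over 30 members. Of these, 10 were under 1 TPM in every library, beside 2.77% of all genes. Near-identical to other genes were 21 of the 30, and without them the median was 5.95 TPM. TIR1 was highest (33.1 ± 2.31 TPM), while PAU20 had 1, 0 and 0 reads and PAU19 had 0, 0 and 1. Neighbouring genes had little in common in level. Across 5508 adjacent pairs of nuclear genes, which share libraries and depth, Spearman's rho of the levels was 0.0834 ± 0.00332, and it was 0.114 for 1434 divergent pairs.

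In all, 56 ORFs had 0 reads in all 3 libraries, 272 had fewer than 3 reads in every library and 744 had fewer than 10. Of the 56, 34 had no RefSeq match and 22 did. Matched ORFs at 0 were, besides LEU2, MET17, MATALPHA1 and the 9 mitochondrial intron ORFs, short or overlapping ones. The longest of these were YEL076C, a subtelomeric ORF with 11 near-identical copies, YPR014C and YNL184C, which overlaps MRPL19. All 4 ORFs of the 2-micron plasmid, a plasmid that most laboratory strains carry, had 0 reads. None of the 4 matched RefSeq of build R64, and whether reads were aligned to the plasmid is not stated. These counts therefore do not show that the plasmid was absent or silent. The 687 ORFs without a RefSeq match took 0.238% ± 0.0330 of reads with a median of 3.01 normalised reads. A single one of them, YLR154W-E, took 0.110% ± 0.0323, with 9260, 8213 and 14317 reads. Its ratio of library 3 to the mean of libraries 1 and 2 was 1.73. As it has no RefSeq match, its overlap with other genes was not examined. Of ORFs that overlap another coding gene, 16.0% were under 1 TPM in every library, against 2.41% of ORFs without such an overlap. For the nuclear overlapping ORFs alone it was 11.2%. YGL088W, which overlaps the small nucleolar RNA gene SNR10, was high instead, with 16099, 11197 and 13586 reads in libraries 1, 2 and 3 (3802 ± 430 TPM). Among abundant ORFs in no list, YDR524C-B stood in the fifteenth place per length with 7189, 7271 and 6947 TPM in libraries 1, 2 and 3, with 201 nt of coding sequence and no annotated overlap.

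Genes with more preferred codons had higher levels. Highly expressed yeast genes are known to prefer a subset of codons read by abundant transfer RNAs. The preferred share counted here is over codons other than the stops and those of amino acids with a single codon. Across 5896 nuclear genes, which share the libraries, Spearman's rho between TPM and the preferred share was 0.565 ± 0.00108, and without ribosomal proteins it was 0.534 ± 0.00115. From the first to the last of 10 equal groups by preferred share, the median level was 17.01, 20.6, 24.9, 25.1, 29.97, 35.3, 47.6, 66.04, 124 and 483 TPM. Most of the increase lay in the last groups. The 100 genes with the highest levels, of which 67 encode ribosomal proteins, had a median of 90.7% preferred codons, against 46.0% for all nuclear genes. The level itself had almost no relation to coding length, with a rho of -0.0199, while read counts did, with 0.424.

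The first 30 codons of TDH3, the highest gene, and of MSH4, a meiotic gene with 61, 35 and 38 reads, show the contrast, with preferred codons in capitals. They are from RefSeq build R64, on the minus strand, at chrVII:883721-883810 and chrVI:137068-137157. In TDH3, 28 of the 30 codons are preferred and in MSH4 12 are. The rest in TDH3 are atg, which the preferred share leaves out, and MSH4 also begins with atg. Over the whole coding sequences the shares, which leave out such codons, are 97.5% and 39.3%.
TDH3: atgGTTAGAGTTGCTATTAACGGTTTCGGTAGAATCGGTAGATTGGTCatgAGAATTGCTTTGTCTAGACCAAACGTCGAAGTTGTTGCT
MSH4: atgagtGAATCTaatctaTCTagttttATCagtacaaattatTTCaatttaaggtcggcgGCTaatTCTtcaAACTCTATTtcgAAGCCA

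**Figure D4:**
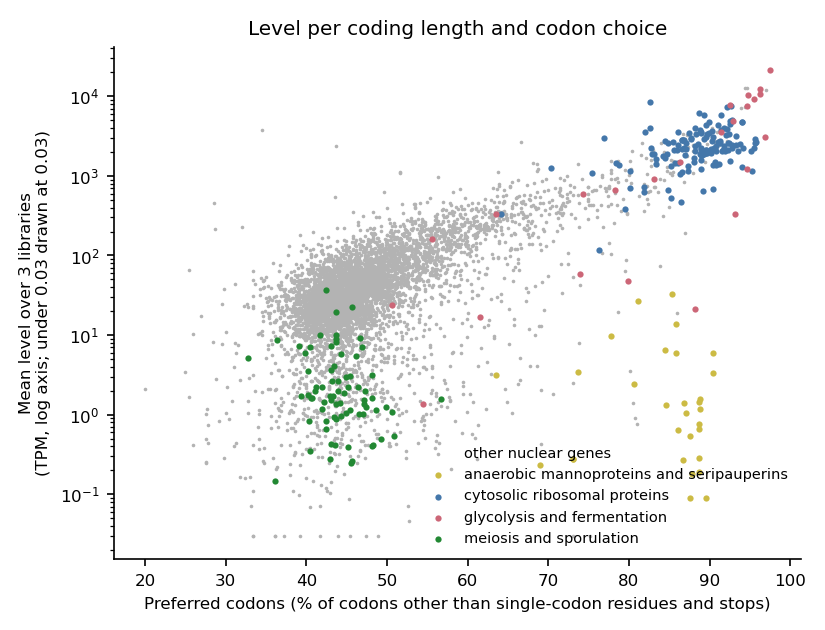
Mean level over 3 libraries (TPM, log axis, values under 0.03 drawn at 0.03) against the share of preferred codons (%) for nuclear genes, with 4 gene lists in colour. Ribosomal protein and glycolysis genes lie at the upper right, meiosis genes at the lower left, and seripauperins at high preferred shares with low levels.

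Some genes went against this relation. Of 180 nuclear genes with at least 85% preferred codons, 22 had a level below the median of all genes, and 20 of these were of the seripauperin and mannoprotein list, with TIR1 (85.4% preferred, 249, 245 and 243 reads) the highest of them. The other members of the 22 were PDC5 (88.2% preferred, 345, 309 and 394 reads), the pyruvate decarboxylase known to be induced when PDC1 is lost, and ANB1 (85.9% preferred, 94, 83 and 87 reads). Most of these seripauperins are near-identical to each other.

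Sequence before the start codon was searched for 5 short motifs. Windows of 500 or 250 bases upstream of the start codon of 5896 nuclear genes were used, so a motif in a window may also lie in a neighbouring gene. CCCATACA, a core of sites of Rap1, the activator of ribosomal protein genes, was looked for on both strands of 500 bases and found before 21.2% of ribosomal protein genes, against 1.92% of all nuclear genes. Only this exact core was searched, so more degenerate sites were not counted. RPS2, RPL2B and RPL1B are among the ribosomal protein genes of high read share that hold this core, and 30 bases around the core, in capitals, are shown as read on the plus strand of build R64. They lie at chrVII:277219-277248, chrIX:316344-316373 and chrVII:254320-254349.
RPS2: tttaagctagaCCCATACAcccgctctatg
RPL2B: tcagactagaaCCCATACAttattttacaa
RPL1B: acatttttgaaCCCATACAtctttcaatat

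The cores ended 379, 405 and 302 bases before the start codons of RPS2, RPL2B and RPL1B. TATAAA, a form of the TATA box, was looked for on the coding strand of 250 bases. It stood before 20 of 24 glycolysis and fermentation genes (83.3%), against 27.5% of all nuclear genes and 16.1% of ribosomal protein genes. So these 2 leading groups of transcripts differed in this motif. TGAAACA is the pheromone response element bound by Ste12. It was found on either strand of 250 bases before 4 of the 6 listed a-specific genes (without STE6) and 5 of 8 alpha-specific genes. Among all nuclear genes it stood before 5.89%. The motif thus stood before genes of both cell types, whose levels lay far apart. A match is a string of letters and not a site shown to be bound.

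Genes with introns are few in yeast but were heavily used. The 271 nuclear genes whose coding sequence RefSeq gives with an intron took 10.9% ± 0.231 of reads, of which 89 ribosomal protein genes took 8.46% ± 0.189. The other 182 had a median of 42.7 TPM, against 33.6 TPM for genes without introns that encode no ribosomal protein. Splicing factors themselves were low, with a median of 23.5 TPM, and SNU13, which also acts in ribosomal RNA modification, was the highest at 742 ± 20.1 TPM.

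The agreement of the 3 libraries was examined gene by gene. Libraries 1 and 2 differed by more than 1.5-fold, on log2(value + 1), in 1 of 4808 genes whose mean reached 100 normalised reads (0.0208%). Library 3 differed from the mean of libraries 1 and 2 by more than 1.5-fold in 110 of them (2.29%), of which 39 were higher in library 3 (0.811%) and 71 lower (1.48%). With library totals set equal in place of the deposited scaling, the median log2 ratio of all genes moved by -0.103 and the counts were 29 higher and 108 lower. As all 3 libraries bear 1 label, these are differences between libraries and not between conditions, and no test was made.

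**Figure D5:**
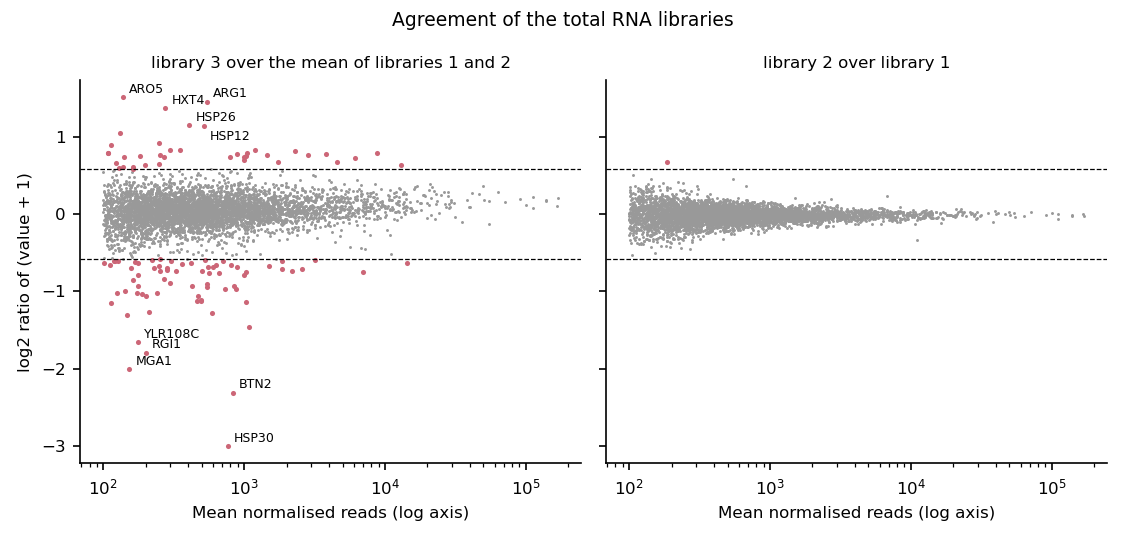
log2 ratio of normalised value + 1 against mean normalised reads (log axis) for 4808 genes, for library 3 over the mean of libraries 1 and 2 on the left and library 2 over library 1 on the right. Dashed lines mark 1.5-fold and genes past it are red, 110 on the left and 1 on the right, with the 5 highest and 5 lowest named on the left.

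The 5 genes lowest in library 3 were HSP30, BTN2, MGA1, RGI1 and YLR108C. HSP30, a stress-induced membrane protein that acts on the proton pump, had 157 reads in library 3, against 1374 and 1295 in libraries 1 and 2, a ratio of 0.125 after normalisation. BTN2, which collects misfolded proteins, had 267 reads in library 3, against 1510 and 1301, a ratio of 0.202. Its homolog CUR1, named after its value was seen, had 128 reads in library 3, against 355 and 302, a ratio of 0.415. MGA1, which resembles heat shock factors, had 59 reads in library 3, against 275 and 234, a ratio of 0.249. RGI1, a respiratory growth gene, had 88 reads in library 3, against 346 and 305, a ratio of 0.289, and the uncharacterised YLR108C had a ratio of 0.318. HSP42, a small heat shock protein that gathers aggregates, had 583 reads in library 3, against 1871 and 1527, a ratio of 0.365.

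Of 41 chaperone genes, 5 were past 1.5-fold lower in library 3 (HSP42, HSP78, FES1, HSP104 and SIS1) and none higher, beside 1.48% lower among all genes. Of 13 measured phosphate genes, 4 were lower (PHM8, PHO12, SPL2 and PHO11), of which PHO11 and PHO12 are near-identical. Of 20 measured iron and copper genes, 3 were lower (CTR1, the copper transporter, with a ratio of 0.457, FRE1, its reductase, with 0.462, and SIT1). The wall-stress kinase gene SLT2 and its transcription factor gene RLM1 were also among those lower, named here after their values were seen.

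The 5 genes highest in library 3 were ARO5, ARG1, HXT4 and the stress protein genes HSP26 and HSP12. ARO5 had 286 reads in library 3, against 113 and 98 in libraries 1 and 2, a ratio of 2.85. ARG1 of arginine synthesis had 1111 reads in library 3, against 449 and 406, a ratio of 2.74. HXT4, a hexose transporter, had 546 reads in library 3, against 230 and 215, a ratio of 2.58. HSP26 had 758 reads in library 3, against 402 and 319, and HSP12 had 956, against 481 and 434, ratios of 2.23 and 2.21. So the stress list was split. Of its 26 measured members, 3 were higher in library 3 (HSP26, HSP12 and GPH1) and 4 lower (HSP30, TPS2, OM45 and TSL1). Among all genes, 0.811% were higher and 1.48% lower. Of the amino acid genes, 5 of 78 were higher, among them ARG1, HIS4, ARG4 and ARG56, and none lower, beside 0.811% higher among all genes. Of 46 measured pumps and permeases, 6 were higher (HXT4, HXT7, HXT6, FUI1, HXT3 and FUR4) and 3 lower (TPO4, DIP5 and HXT2). No cytosolic ribosomal protein gene was past 1.5-fold in either direction, beside 2.29% of all genes. The median log2 ratio of the 137 was 0.16, beside 0.0475 for all genes.

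Measured properties that moved with the library difference are given beside it. Across 4786 genes the log2 ratio of library 3 had a rho of -0.200 with coding length and 0.155 with GC content, and their part in the difference was not tested. The heat shock element bound by Hsf1, searched as TTC, any 2 bases, GAA, any 2 bases and TTC, was chosen after the data were seen and was found on either strand of 500 bases before 8 of 70 nuclear genes lower in library 3 (11.4%) and before 1 of 36 higher (2.78%), against 1.48% of all nuclear genes. AGGGG, the stress response element bound by Msn2 and Msn4, stood before 45 of the 70 lower (64.3%) and 16 of the 36 higher (44.4%), against 34.5% of all nuclear genes. For both motifs, the 70 and 36 genes had a mean of at least 100 normalised reads, whereas all nuclear genes include those below it. The shares among only the nuclear genes that reach this mean were not counted. Sequences of 30 bases from 3 genes, the lowest in library 3 that hold such an element, are shown with the fixed letters of the element in capitals. They are read on the strand of the gene, plus for BTN2 (chrVII:772102-772131) and HSP42 (chrIV:806370-806399) and minus for HSP78 (chrIV:974469-974498), and the elements end 331, 230 and 234 bases before the start codons.
BTN2: acttttttTTCtaGAAagTTCcggaaaatt
HSP42: cttaaaagTTCtgGAAggTTCgcgaattga
HSP78: ttgttattTTCcaGAAtgTTCtagaagtgt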

How the data were processed

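RNA abundance was measured by sequencing 3 rRNA-depleted total RNA libraries of BY4741. Libraries were paired-end and made with a Nextera kit, per the labels. The tools that the submitters' processing notes name are DESeq 1.22.1, HTSeq, Bowtie 0.12.7, Trimmomatic 0.32 and FastQC, and the genome build is R64. Which annotation was counted, whether strand was used and what happened to reads with several matches is not stated. The authors deposited a signal per ORF and library, called normalised reads per the file headers. Dividing each library by its smallest step gave whole reads for 100% of nonzero values (tolerance 0.01), and these reads were used. The implied size factors were 1.32, 1.16 and 1.17, all above 1. Whether the other libraries of the study entered this deposited scaling was not tested. It affects ratios between libraries but not shares or TPM within a library. The 7 other value columns of the table (the other libraries, means and the authors' comparison) were not used. Reads outside ORFs are not in the table, so shares are of ORF reads. The depth in ORFs was 8948906 to 10281076 reads, and the total depth is not known from the table.

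Of 6603 ORFs, 5916 matched RefSeq of build R64, which gave symbols, positions and sequences, and all coding lengths were multiples of 3. Near-identical genes (253) matched another gene in BLAST+ 2.17.0 with 95% identity or more across 50% or more of their coding length. Calculations used Python 3.11.15, pandas 2.3.3, numpy 2.4.6 and scipy 1.17.1, and were tested on simulated data. Library 3 was compared with libraries 1 and 2 on log2(value + 1) at a mean of at least 100. With 1 group there was no test, and the count test on recovered reads was not run for the same reason. Intervals and floors cover counting error only.

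The gene lists, motifs and comparisons were chosen with earlier results of these data known. Lists were corrected after their values were seen by removing genes of another function, such as RPP1 and SPG5. Genes named were the 20 highest by reads, the 10 highest per length, up to 4 highest and 2 lowest of a list, the strain and mating-type genes, the longest matched ORFs at 0, and the 5 highest and 5 lowest ratios of library 3. Other named genes were chosen after their values were seen. Alternatives left out a library, ORFs without a RefSeq match or near-identical genes, used level per length, or changed filter, scaling and pseudocount. Some genes that these choices name are not reported here.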

Additional observations from a re-analysis of the deposited data

How the results depend on the processing

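No paired analysis was possible because the libraries form 1 group and no test was made. With near-identical genes left out, the share of reads was 12.6% for the 10 most abundant genes, 14.1% for ribosomal proteins, 11% for glycolysis and fermentation and 0.195% for mitochondrially encoded genes. Per coding length these shares were 11.7%, 34.7%, 9.67% and 0.421%. Leaving out each library in turn gave 14.4% to 14.8% for the 10 most abundant genes, 16.5% to 16.9% for ribosomal proteins, 11.6% to 11.9% for glycolysis and 0.249% to 0.279% for mitochondrial genes. Without library 3 these shares were 14.4%, 16.5%, 11.6% and 0.279%, 72 ORFs were at 0 and the rho of level with preferred codons was 0.564. The number of ORFs at 0 was 72 to 96 when a library was left out, where fewer libraries can hold a read, 22 without ORFs that lack a RefSeq match, 43 without ORFs that overlap another gene (an alternative chosen after seeing the data) and 272 at fewer than 3 reads. Without library 1 it was 93 and without library 2 it was 96. The rho of level with preferred codons was 0.589 with a mean of at least 10, 0.567 at 300 nt or more, 0.534 without ribosomal proteins and 0.564 to 0.565 with a library left out. The number of genes past 1.5-fold in library 3 was 244 with a mean of at least 10, where more genes were tested, and 112 to 117 with library 1 or 2 left out. Of the other 36 lists, 3 moved their share by over 1.5 times without near-identical genes (translation factors to 3.83%, chaperones to 2.78%, subtelomeric helicases and COS genes to 0.0208%) and 16 did per coding length. ORFs with few reads limit precision: at a mean of 1 to 10 normalised reads the median coefficient of variation was 48.5%, beside 50% for counting alone. Above 10000 normalised reads it was 6.39%, beside 0.734% for counting alone, and at 1000 to 10000 it was 4.54%, beside 2.11%.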
